A study of Mus musculus with 8 samples.

Results

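The network genes examined here are Eya1, Eya2, Eya3, Eya4, Six4, Six5, Dach1 and Dach2, 8 of the 32542 genes in the expression tables. They were chosen by name as one gene network around Eya2, and Eya2 was selected on its own lower count in knockout libraries, seen in earlier results of the same libraries. Its difference between genotypes is therefore given as a description, with no test. RNA was sequenced from GFP-positive cells sorted at E16.5 from the mouse amygdala, labelled as intercalated cells, which are clusters of GABAergic neurons around the basolateral amygdala. Control libraries came from Tshz1GFP/+ embryos and knockout libraries from Tshz1GFP/RA embryos, 4 of each. Both genotypes therefore carry the GFP allele, and the controls keep 1 + allele. The labels do not say what the RA allele lacks. The mice were outbred, and each library holds embryos of 1 genotype pooled before the sort; nothing in the labels says that the pools are separate litters, so p-values measure the spread between these pools. Each title begins with NX, NY, QT or RM, a prefix shared by 1 control and 1 knockout library, and its meaning is not stated.

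EYA proteins are transcriptional coactivators that do not bind DNA themselves and also carry a phosphatase domain. They are brought to genes by SIX-family proteins, which bind DNA through a homeodomain, and DACH proteins, relatives of the SKI corepressors, join the same complexes and can repress. The fly counterparts (eyes absent, sine oculis and dachshund) form the retinal determination network, in which teashirt, the counterpart of the Tshz genes, also acts. In mammals the network is best known from ear, kidney, muscle and sensory placode development.

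Library totals ran from 5785549 to 14535810 expected counts, the estimated fragments summed over genes. A floor of 3 counts is used below, which equals 0.186 to 0.544 CPM (counts scaled to library size and TMM factor) depending on the library. These floors and the counting intervals below cover counting error only, because the amplified fragments carry no molecular identifiers. The disrupted gene, Tshz1, was at 381 ± 115 CPM in controls and fell to 79.0 ± 29.4 CPM (SD, n = 4) in the knockout. All 8 intercalated cell markers examined, a list that includes Tshz1 itself, were above 0 in all libraries. In the knockout 8 of 8 were fitted lower, against 50.6% of all tested genes, though Pax6 differed little (30.7 against 29.8 CPM). The disrupted gene was the only one called, against 0.0353% of all tested genes. Summed with Tshz1 included, the 8 markers reached 1809 to 3280 CPM in controls and 1346 to 2063 CPM in knockouts. The control NX library lay at one end of the first principal component and the knockout QT library at one end of the second.

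Levels of different genes are compared on the TPM scale, which divides by transcript length. In control cells Eya3 had the highest mean of the 8 genes, 11.4 ± 3.49 TPM, and Eya2 came next with 7.10 ± 4.37 TPM (SD, n = 4). Dach2 followed at 5.68 ± 0.861 TPM, Dach1 at 3.94 ± 0.911 TPM and Eya1 at 2.19 ± 1.33 TPM. Six5 (0.965 ± 0.810 TPM), Eya4 (0.660 ± 0.539 TPM) and Six4 (0.295 ± 0.361 TPM) were lowest. The range over the 4 control libraries overlapped for every pair of neighbours in this order, although Eya3 was above Eya2 in 4 of 4 libraries. Eya2 was above Dach2 in 2 of 4, and its place rests on the control NX library: without it, an alternative chosen after seeing the data, Eya2 averaged 4.97 and Dach2 5.68 TPM (n = 3). None of these genes was abundant: 48.0% of tested genes had a lower control TPM than Eya3, and 35.8% a lower one than Eya2. In knockout cells Eya3 again led, at 10.7 ± 2.83 TPM, here above every library of the next gene, Dach2. Eya2 was last, at 0.168 ± 0.267 TPM.

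**Figure D1:**
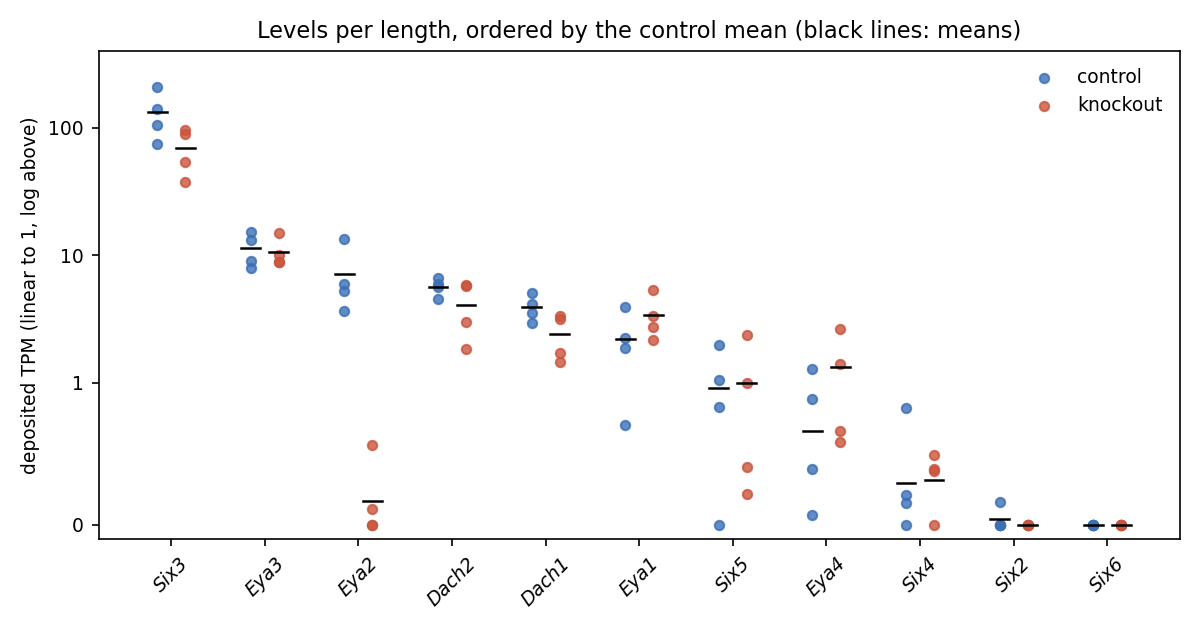
Deposited TPM of the 8 genes and of Six2, Six3 and Six6, ordered by the control mean; each point is a library, black lines are means of 4, and the vertical axis is linear up to 1 and logarithmic above. Eya2 has the second mean of the 8 genes in control libraries and last in knockout libraries, Six3 lies far above the rest, and Six6 is listed at 0.

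Eya2 lies on chromosome 2 from 165595032 to 165771727 on the plus strand (GRCm38) and is protein-coding. Its fragments numbered 230 (NX), 96 (NY), 79 (QT) and 30 (RM) in controls. In knockouts they numbered 8 (NX), 0 (NY), 0 (QT) and 1 (RM). Scaled to depth, the control values were 14.2, 7.09, 6.04 and 5.44 CPM and the knockout values 0.544, 0, 0 and 0.166 CPM in the same order. Every control library lay above every knockout library, and the NX library was the highest of its genotype in both.

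At the rate of the lowest control library, the knockout libraries would have held 80.0 (NX), 65.8 (NY), 35.8 (QT) and 32.8 (RM) fragments, so Eya2 at control level would have been detectable at this depth. The 0 counts in the knockout NY and QT libraries allow up to 0.248 and 0.456 CPM. The mean of Eya2 was 8.20 ± 4.08 CPM over controls and 0.178 ± 0.257 CPM over knockouts (SD, n = 4 each), a 46.2-fold lower level. Summed over libraries, 435 control fragments, 230 of them from NX, stood against 9 knockout fragments, a depth-scaled ratio of 39.4. By prefix, the control level was 26.2-fold higher in NX (exact 95% counting interval 13.1 to 61.4). It was at least 28.6-fold and 13.2-fold higher in NY and QT, against a floor of 3 counts in the knockout library. In RM, where the knockout library held 1 fragment, the ratio was 32.8 (5.44 to 1336). These intervals leave out the spread between libraries and, since the same values chose Eya2, are no test. The fitted log2 fold change was -5.26 (SE 0.89), and -7.24 without the knockout NX library, which held 8 of the 9 fragments.

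In bulk RNA of sorted cells, fewer cells with Eya2 transcript and less transcript per cell cannot be told apart. Eya2 passed the filter on low counts through its control libraries alone, and the genotypes did not overlap. Of all tested genes, 1.45% had every knockout library below every control library. This share is given as background, since the same contrast chose Eya2. The length that the authors' software RSEM listed for Eya2, weighted by the transcript models in use, was 2459 bases in the control NX, QT and RM libraries and 2252 bases in NY. In the knockout NX library it was also 2459 bases, and in knockout RM, with 1 fragment, it was 1976 bases, a length listed in no control library. Eya2 fragments were whole numbers in 8 of 8 libraries, which is what RSEM gives when no fragment is divided between genes. No other annotated gene overlaps exons of Eya2 or of the 7 other genes.

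**Figure D2:**
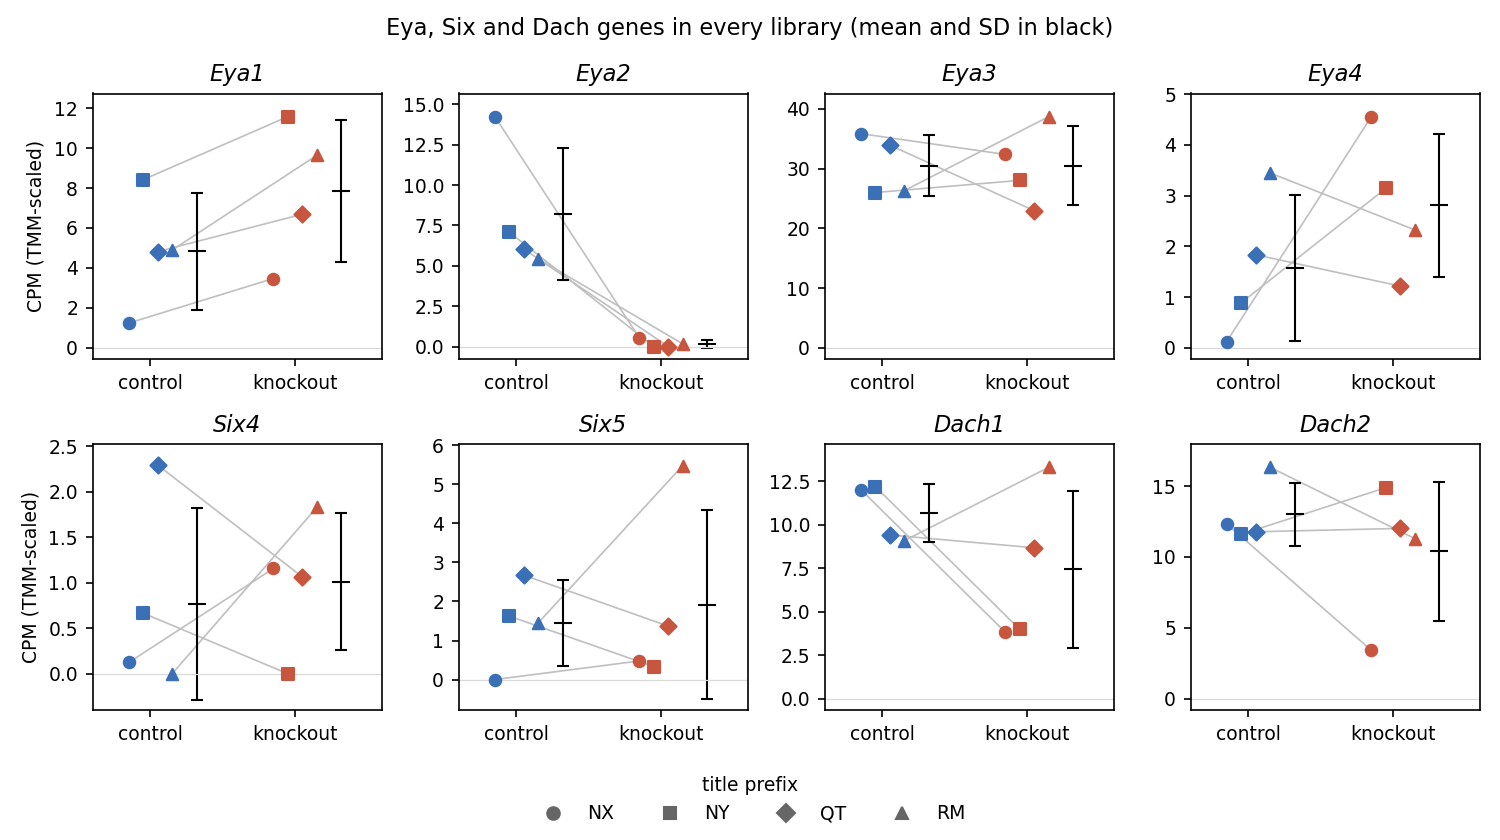
CPM of each gene in the 4 control (blue) and 4 knockout (red) libraries, with marker shape for the title prefix, grey lines joining libraries of 1 prefix, and black bars for the mean and 1 SD, which reach below 0 where the SD exceeds the mean. Genotypes separate for Eya2 alone, where control libraries lie between 5.44 and 14.2 CPM and knockout libraries at 0.544 CPM or less.

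The other Eya paralogues did not share this difference. Eya3, the broadly expressed member of the family, had 35.9 (NX), 26.0 (NY), 33.9 (QT) and 26.3 CPM (RM) in control and 32.4, 28.0, 23.0 and 38.7 CPM in knockout libraries. The groups overlapped, with NX and QT lower and NY and RM higher in the knockout. Mean Eya3 was 30.5 ± 5.11 against 30.5 ± 6.68 CPM (SD, n = 4 each). Its log2 fold change was -0.00 (SE 0.24, 95% interval -0.53 to 0.53), that is between 0.692 and 1.44 times the control level, the narrowest interval of the 8 genes. The sign changed with the composition factors and with the libraries used.

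Eya1, known for its part in ear and kidney development, had 1.24 (NX), 8.42 (NY), 4.81 (QT) and 4.90 CPM (RM) in control and 3.47, 11.6, 6.69 and 9.63 CPM in knockout libraries. The knockout library was higher in 4 of 4 prefixes, yet the genotypes overlapped. NX was lowest and NY highest in both genotypes. The log2 fold change of Eya1 was 0.69 (SE 0.57, 95% interval -0.55 to 1.93). Summed CPM of 6 dividing cell markers was likewise lowest in NX, at 58.9 in the control library, against 372 (NY), 599 (QT) and 345 (RM). In the knockout these sums were 90.2 (NX), 1006 (NY), 871 (QT) and 862 (RM), again higher in 4 of 4 prefixes. Of these markers, 6 of 6 were fitted higher and 0 were called. Among all tested genes 50.6% were fitted lower and 0.0353% were called. Their part in the Eya1 values was not tested. Expected counts of Eya1 were whole in 2 of 8 libraries, so some of its fragments were divided with other loci.

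Eya4, another coactivator of the family and a deafness gene, was sparse. Its control fragments numbered 2 (NX), 12 (NY), 24 (QT) and 19 (RM) and its knockout fragments 67, 38, 8 and 14, or 0.124, 0.886, 1.83 and 3.45 CPM against 4.56, 3.14, 1.22 and 2.33 CPM. The knockout library was higher in NX and NY and lower in QT and RM. In NX the ratio of knockout to control was 36.8 with a counting interval of 9.80 to 310.1, since the control library held 2 fragments. The log2 fold change of Eya4 was 0.90 (SE 0.84, 95% interval -0.91 to 2.71).

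Without Eya2, the summed TPM of Eya1, Eya3 and Eya4 was 14.2 ± 2.49 in control and 15.4 ± 3.49 in knockout libraries (SD, n = 4 each), with overlapping ranges (11.1 to 16.3 against 12.3 to 19.6 TPM). With Eya2, the sum over all 4 paralogues was 21.3 ± 6.22 against 15.5 ± 3.69 TPM. Eya2 made up 45.6% (NX), 30.9% (NY), 24.4% (QT) and 24.98% (RM) of that sum in control libraries. In knockout libraries it made up 2.78%, 0%, 0% and 0.889%. Eya3 held 53.3 ± 5.90% of the sum in control and 68.5 ± 5.98% in knockout libraries, Eya1 11.5 ± 7.39% against 22.7 ± 8.94%, and Eya4 3.78 ± 3.67% against 7.84 ± 3.91%. Shares of 1 sum are tied to each other, so the larger shares of the 3 others in the knockout include the smaller Eya2 share.

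**Figure D3:**
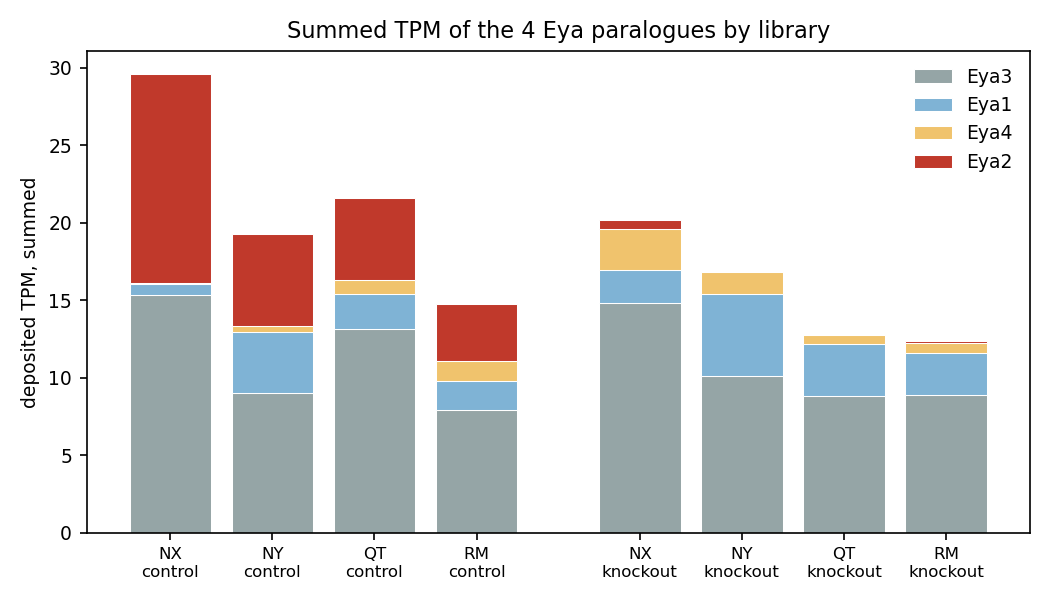
Deposited TPM of the 4 Eya genes stacked by library, control on the left and knockout on the right. The Eya2 segment reaches 13.5 TPM in the control NX library and 0.56 TPM at most in knockout libraries, while the Eya3 segment spans 7.91 to 15.35 TPM in control and 8.83 to 14.81 TPM in knockout libraries.

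The SIX-family genes among the 8 had few fragments. Six4 held 2 (NX), 9 (NY), 30 (QT) and 0 (RM) fragments in control and 17, 0, 7 and 11 in knockout libraries, so 3 of 8 libraries were under the floor of 3 counts. Six5, which lies 772 bases from the end of the muscle kinase gene Dmpk on chromosome 7, held 0, 22, 35 and 8 fragments in control and 7, 4, 9 and 33 in knockout libraries. For Six5, 1 of 8 libraries was under that floor. Neither gene kept 1 direction: in 2 of 4 prefixes the knockout library was the lower, and in the other 2 the higher. Summed over libraries, the depth-scaled ratio of control to knockout was 0.956 for Six4 (exact 95% counting interval 0.594 to 1.55) and 1.00 for Six5 (0.685 to 1.47).

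The fitted log2 fold changes were 0.30 for Six4 (SE 1.18, 95% interval -2.26 to 2.87) and 0.37 for Six5 (SE 1.13, -2.07 to 2.81). Both intervals hold a 4-fold change in either direction. They are wider than the counting intervals because they include the spread between libraries. Both signs turned without some of the libraries, and Six5 was at -1.02 without the knockout RM library, its highest.

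Dach1, a corepressor of the network, had 12.01 (NX), 12.2 (NY), 9.40 (QT) and 9.07 CPM (RM) in control libraries. In knockouts Dach1 stood at 3.81 (NX), 3.97 (NY), 8.66 (QT) and 13.3 CPM (RM). The NX and NY libraries were lower in the knockout, 3.15-fold (counting interval 2.33 to 4.33) and 3.07-fold (2.21 to 4.33). In QT the genotypes stood close together (1.08-fold, 0.786 to 1.51), and RM went the other way. The spread of Dach1 was therefore larger in the knockout (7.43 ± 4.51 CPM) than in the control (10.7 ± 1.66 CPM; SD, n = 4 each). Its log2 fold change was -0.54 (SE 0.44, 95% interval -1.50 to 0.42), and -0.97 without the knockout RM library. Vascular cells can also express Dach1. Summed CPM of 9 vascular and meningeal markers was 1.36 (NX), 52.1 (NY), 5.12 (QT) and 19.9 (RM) in control and 2.99, 4.96, 8.51 and 13.0 in knockout libraries. The part of these cells in the Dach1 values was not tested.

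Dach2, the X-linked paralogue, had 12.3 (NX), 11.6 (NY), 11.8 (QT) and 16.3 CPM (RM) in control and 3.40, 14.9, 12.01 and 11.3 CPM in knockout libraries. One knockout library, NX, stood below all the others, NY and QT lay within the control range, and RM lay just under the lowest control library. The log2 fold change of Dach2 was -0.32 (SE 0.42, 95% interval -1.23 to 0.58), and -0.02 without the knockout NX library. Both paralogues were lowest in NX among the knockout libraries, but Dach1 was also low in NY, where Dach2 was highest. Over the 8 libraries their log2 CPM correlated at r = 0.48.

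In the fit over all 14157 tested genes, 0 of the 8 genes were called by edgeR's quasi-likelihood test at a Benjamini-Hochberg adjusted p under 0.05, against 0.0353% of all tested genes (5 genes). For Eya2 nothing is read from this count, since the same contrast chose it. For the 7 genes other than Eya2 the adjusted p was 1.00. Of the 8 genes, 4 were fitted higher and 4 lower, with a median log2 fold change of 0.15 against -0.01 over all genes. The 4 lower include Eya2, chosen for its lower count, and Eya3 at -0.003, whose sign changed between alternatives. Nothing is read from this split. The 7 misses among the genes other than Eya2 do not show equal levels, and the intervals above give the range of differences that remain possible.

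**Figure D4:**
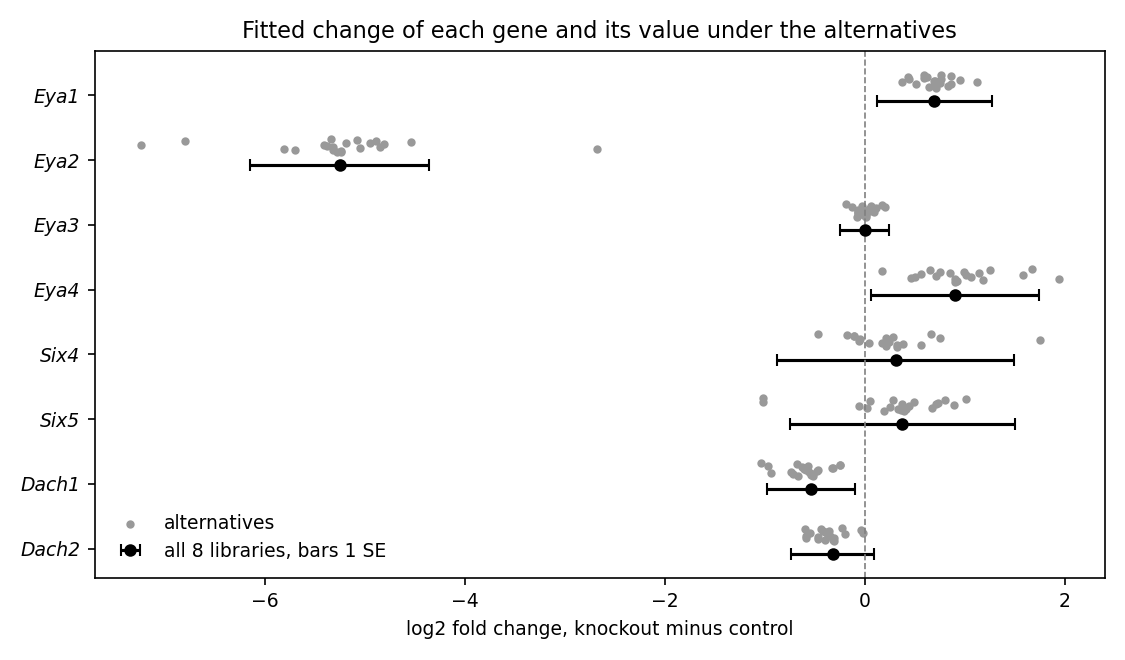
Log2 fold change of each gene, knockout minus control, with all 8 libraries (black points, bars of 1 SE) and under each alternative (grey points). Eya2 lies between -7.24 and -2.69 in 21 alternatives, Eya3 stays between -0.19 and 0.20, and the values of Six4 and Six5 fall on both sides of 0.

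Levels of a different order were seen for Six3. This homeobox gene of forebrain and striatal development, whose protein works mainly with Groucho corepressors rather than with EYA, had 132 ± 57.5 TPM in control and 68.9 ± 27.9 TPM in knockout libraries (SD, n = 4 each). On the CPM scale, Six3 had 228 (NX), 212 (NY), 371 (QT) and 170.3 CPM (RM) in control and 81.2, 170.8, 172 and 113 CPM in knockout libraries. It was lower in 4 of 4 prefixes, with ranges that just overlapped. The fitted difference for Six3 was -0.87 on the log2 scale (SE 0.29), and edgeR's quasi-likelihood test gave adjusted p = 1.00. Six3os1, an antisense gene that overlaps exons of Six3 and was chosen after its values were seen, had 225 ± 45.2 against 75.5 ± 37.5 CPM. The kit named in the labels is not stated to keep strand, so fragments over shared exons cannot be assigned to 1 of the 2 genes. Its log2 fold change was -1.58 (SE 0.37), and edgeR gave it an adjusted p of 0.441. Six6 had 0 fragments in 8 of 8 libraries, and Six2 had 2 fragments in the control QT library alone.

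Other genes of the network were taken from lists written by function. None of the 13 corepressor, coactivator and partner genes was called, against 0.0353% of all tested genes, and 11 of 13 were fitted lower (median log2 fold change -0.12), against 50.6% of all tested genes. The member of that list with the smallest p was Gnaz, a G protein subunit that binds EYA2, at 23.6 ± 4.29 against 14.6 ± 2.76 CPM (log2 fold change -0.68, SE 0.27, n = 4 each). The genotypes did not overlap for Gnaz, as for 1.45% of all tested genes that were lower in the knockout, and its adjusted p from edgeR was 1.00. Both SKI family genes were fitted slightly lower, Ski at 88.2 ± 34.7 against 78.4 ± 11.1 CPM. Of 10 upstream Pax, Meis and Tshz genes, 6 were tested, with 4 of the 6 fitted lower, against 50.6% of all tested genes. The 1 that was called was the disrupted gene Tshz1 itself, against 0.0353% of all tested genes. Its paralogues Tshz2 and Tshz3, chosen after their values were seen, were fitted the other way and not called. Tshz3 stood at 6.05 ± 2.69 against 22.7 ± 4.14 CPM, higher in 4 of 4 prefixes (adjusted p = 0.161 from edgeR). Tshz2 stood at 27.1 ± 15.1 against 58.3 ± 22.9 CPM, higher in 4 of 4 prefixes with overlap (adjusted p = 1.00 from edgeR). None of 8 tested genes reported as targets of EYA and SIX-family proteins was called, against 0.0353% of all tested genes. Their median log2 fold change was -0.08. Sall1, a zinc finger repressor, had the smallest p there, at 32.9 ± 11.1 against 48.7 ± 8.45 CPM. Dmpk, the neighbour of Six5, stood at 11.3 ± 5.12 against 10.9 ± 6.20 CPM.

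The genes whose pattern over the 8 libraries was most like that of Eya2 were ranked by Pearson correlation of log2 CPM among 12878 genes, as a description, because both genotypes and their depth enter it. They were Tox (r = 0.97), an HMG-box transcription factor, Tshz1 itself (0.96), Lypd1 (0.95), a Ly6 family modulator of nicotinic receptors, Entpd6 (0.94), a nucleotidase, and Fndc5 (0.94), the precursor of irisin. Each had a lower mean in the knockout, which likeness to Eya2 favours by itself. The means went from 57.4 ± 25.4 to 9.52 ± 6.71 CPM for Lypd1 and from 11.3 ± 0.465 to 5.88 ± 1.92 CPM for Entpd6. Tox and Tshz1 were among the 5 genes called in the fit over all genes (0.0353% of those tested), and for the same reason nothing is read from this. Among the other 7 network genes the correlation with Eya2 ran from -0.61 (Eya1) to 0.50 (Dach1).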

How the data were processed

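Trimmomatic 0.33, RSEM 1.2.22, Bowtie2 and the mm10 build are named in the submitters' processing notes; the annotation release is not given in the sources used here. The deposited tables hold, per the file headers, RSEM expected counts, TPM, FPKM (not used here) and gene lengths, and the matrices equalled the sample files in 16 columns. Expected counts were rounded to whole numbers, then fitted in edgeR 4.0.16 under R 4.3.3 (filterByExpr, TMM, quasi-likelihood test of genotype, Benjamini-Hochberg adjustment), which left 14157 of 32542 genes. The row named unknown was left out; it held 3.86e-06% of the counts. Standard errors and 95% intervals come from the quasi-likelihood F. Alternatives used other composition factors, no filter, DESeq2 1.42.0, limma 3.58.1 (voom, or log2 of TPM plus 1 or 0.1), the prefix as a block and fewer libraries. The fit was tested first on simulated data, in which only genes of higher average level were changed. It called 12% of 2-fold, 82% of 4-fold and 100% of 16-fold changes. Eya1, Eya2, Eya4, Six4 and Six5 lay below that level, so the simulation says nothing about them. Positions are from GENCODE M21 (GRCm38), which matched 8 of 8 genes by symbol. The genes and lists were chosen with earlier results of these data known. Named genes are the 8 genes, called or smallest-p members of the lists, SIX-family genes and the 5 genes most like Eya2 (3 for the others).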

Additional observations from a re-analysis of the deposited data

Results flagged for a closer look

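One of 26 groups of 4 libraries examined (CPM of the 8 genes and of Six3, and shares of the summed Eya TPM) had a library far from its group. Dach2 stood at 16.3 CPM in the control RM library, and the next highest control library was at 12.3 CPM; that gap was 0.846 of the range of the group, above Dixon's 95% critical value for 4 values. Chance alone sets apart about 1 group in 20.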

How the results depend on the processing

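All 5 called genes were called with other composition factors (5 genes), without the filter (19), by DESeq2 (39) and with the prefix as a replicate block (28). The count was 9 without composition factors, 2 with limma-voom, 10 with log2(TPM + 1), 11 at an adjusted p under 0.1, and 0 to 5 with 1 library left out. No gene, Tshz1 and Tox included, was called without control NX, QT or RM or without knockout NY or QT. Leaving out 2 libraries, chosen after seeing the data, left 3 genes (both NX) or 0 (both NY, both QT, both RM, or control NX with knockout QT). In the 9 settings with 0 calls, edgeR gave 262 to 716 genes an unadjusted p under 0.05. None of the 7 genes other than Eya2 was called in any of the 22 alternatives. Libraries of 1 prefix correlated in their deviations from 0.07 to 0.45, and 7 of 8 correlated best with their own prefix, a hint from the data that prefixes may pair libraries. The QT pair was under 0.1. Because the labels do not explain the prefix, it was not made a term of the reported fit and entered as an alternative only.

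Eya2 was fitted at -2.69 on log2(TPM + 1) and at -6.80 without both NX libraries. Eya1 and Eya4 were fitted higher and Dach1 and Dach2 lower in all alternatives. Eya3 turned to 0.013 with other composition factors, 0.012 with DESeq2, 0.20 without control NX and knockout QT, 0.058 without both NX and 0.17 without both QT libraries, and ran from -0.13 to 0.11 with 1 library left out. Six4 ran from -0.11 to 1.75 with 1 library left out and was -0.11 without control NX and knockout QT, -0.18 without both NX and -0.47 without both RM libraries; it was not tested without both QT libraries. Six5 ran from -1.02 to 0.89 with 1 library left out and was -1.02 without both RM libraries. The causes were not tested. In CPM, which favours long transcripts, Eya2 held 17.7% and Eya3 67.3% of the summed control level.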

Other observations

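The genes most like the other members over the 8 libraries came from different groups. Eya1 was followed by Cdc6 (r = 0.98), which licenses DNA replication, by Tgfb1i1 (0.98), a focal adhesion protein, and by Fam111a (0.98), a protease that binds the replication clamp. The control mean of Cdc6 was 3.53 ± 2.90 CPM and its knockout mean 6.38 ± 3.39 CPM (SD, n = 4 each). Dach1 was followed by Prkcd (0.91), a protein kinase C, at 6.15 ± 1.55 against 3.28 ± 2.52 CPM, by Cntn4 (0.91), a contactin adhesion molecule, at 3.49 ± 1.55 against 2.05 ± 1.24 CPM, and by Tex2 (0.91). Eya3 was followed by Tppp (0.95), a tubulin-binding protein, Dhx35 (0.95) and Spint2 (0.94). The closest gene to Eya4 was Serpinb6a (r = 0.96), and the closest to Dach2 was Epb4.1l5 (r = 0.95). The neighbours of Six4 and Six5 rest on few fragments and are not named. All of these are descriptions over libraries that share depth and genotype.

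RSEM listed lengths that varied by library for some of the 8 genes and hardly for others. Eya3 stayed between 5168 and 5184 bases in all 8 libraries, and Six5 has 1 transcript model. Dach2, with 7 models, ran from 3920 to 4828 bases in control and from 4136 to 4869 bases in knockout libraries. Eya1 ran from 3903 to 4319 bases in control and from 3884 to 4258 bases in knockout libraries. Six4 was listed at 2021 bases in the control NX library, which held 2 fragments, and at 5572 bases in 5 other libraries.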
